A study of Mus musculus with 13 samples.

Results

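The genes described here code for protease inhibitors of the serpin, cystatin, Kazal, Kunitz and inter-alpha-trypsin inhibitor families, with alpha-2-macroglobulin (A2m), calpastatin (Cast) and Pebp1 beside them. They were picked by symbol alone, not by any measured value, and make up 96 of the 25965 genes listed. Of these, 59 are serpins, 12 cystatins, 12 Kazal-type genes (Spink), 4 Kunitz-type genes (Spint) and 5 inter-alpha-trypsin inhibitor heavy chain genes (Itih). The last 4 are A2m, Cast, Pebp1 and Cstad, whose symbol begins like that of a cystatin although it is not one. Serping1, the C1 inhibitor, has a name that fits the letters of the pattern but is left out by the wording of the rule, so it is counted below as a gene outside the set.

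Adult whole testis of mice at 15 weeks, freed of its outer coat, was profiled by RNA-seq in 13 libraries. Of these, 6 were labelled Wfdc15a-/- (KO), 4 were labelled Wfdc15a+/- (Het) and 3 WT. The study's own design pools Het and WT mice as control (n = 7) and asks what Wfdc15a, itself a gene for a presumed protease inhibitor, does in spermatogenesis. The strain, the structure of the knockout allele and the meaning of a number in the titles (1 for KO replicates 1 to 3 and Het replicate 1, 2 for KO replicates 4 to 6, Het replicates 2 to 4 and WT) were not stated in the labels or the design text. Values are RPM, which corrects each gene's reads for the depth of its library, and were recovered from a deposited log2 table.

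Protease inhibitors work by offering a protease a false or blocking substrate. Serpins trap serine proteases by a large change of shape once a loop is cut, and the trapped complex does not come apart. Cystatins plug the active site of papain-like cysteine proteases such as cathepsins. Kazal and Kunitz domains bind trypsin-like proteases tightly and reversibly. In the testis these proteins meet the proteases of the acrosome, of lysosomes and of the junctions that open and close as germ cells move through the epithelium. Several clade A serpins and many type 2 cystatins lie in gene clusters that have expanded in rodents.

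The libraries held 4.22 to 8.23 M assigned reads with the KO label, against 5.64 to 10.1 M in the controls, and 1 read was worth 0.0899 to 0.222 RPM. A count of 0 allows up to 3 reads, or 0.270 to 0.665 RPM, for counting error only. Wfdc15a itself averaged 44.6 ± 21.8 RPM in the libraries labelled KO and 65.5 ± 12.5 RPM in the controls (SD, n = 6 and 7; log2 difference -0.66, two-sided exact permutation p = 0.0338), so its RNA was not lost. It was at 61.2 ± 17.7 RPM in the KO-labelled libraries of number 2 and 28.1 ± 7.60 RPM in those of number 1 (n = 3 each), and the p was above 0.05 when any 1 of KO replicates 1, 2 or 3, Het replicates 2 or 4 or WT replicate 1 was left out (0.0541 to 0.0821). The libraries are therefore named by their label throughout. Markers of testis cell types were present, and 23 of 25 tested elongating spermatid genes were lower in the libraries labelled KO, with a summed level of 19794 to 24850 RPM against 32287 to 38010 RPM in the controls. Of 21 tested Sertoli cell genes 14 were higher (summed level 3522 to 5547 RPM against 2044 to 3425 RPM), and of 17 Leydig cell genes 11 were higher (7470 to 12069 RPM against 3024 to 5643 RPM). Of 18 tested macrophage genes 12 were higher and 1 lower, with a median log2 difference of 0.86, while their summed level overlapped (1259 to 1598 RPM against 1249 to 1458 RPM). Peritubular and smooth muscle genes had 5 of 13 higher and 1 lower, fibroblast genes 5 of 13 higher and endothelial genes 4 of 13 higher. Round spermatid genes had 4 of 19 lower (median log2 -0.08), and pachytene spermatocyte genes 4 of 17 lower and 1 higher. By the same limma test 18.4% of all genes were higher and 6.18% lower. In whole testis RNA, fewer cells of a type and less RNA per cell cannot be told apart, and what part these shifts have in the results below was not tested.

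Of the 96 genes, 40 had a mean of at least 1 RPM over the 13 libraries and were tested. Another 39 had reads in some library but fell under that level, and 17 had none. With limma and Benjamini-Hochberg adjustment over all 16235 genes tested (threshold 0.05), 16 of the 40 were higher and 4 lower in the libraries labelled KO. Of all genes tested, 18.4% were higher and 6.18% lower. The median log2 difference was 0.41 over the 40 inhibitor genes and 0.16 over all genes tested. That median of all genes was 0.02 with median-of-ratios scaling and -0.01 with quantile normalization. With median-of-ratios scaling 13 inhibitor genes were higher and 7 lower, with 1711 genes higher and 1716 lower in all. Quantile normalization gave 10 higher and 5 lower, with 1462 and 1532 in all.

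**Figure D1:**
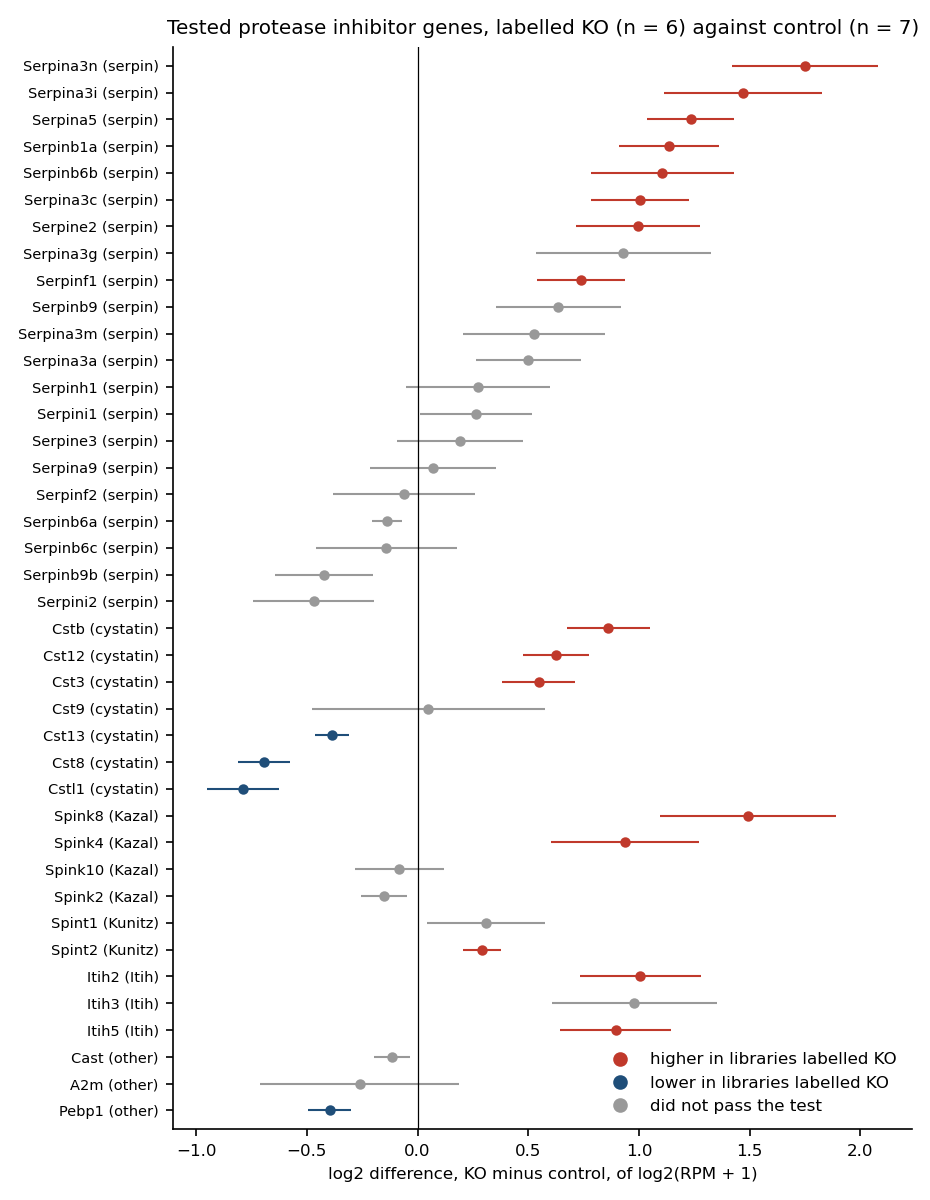
Log2 difference (x axis) of each of the 40 tested inhibitor genes, libraries labelled KO (n = 6) minus control (n = 7), with bars of 1 standard error, grouped by family and ordered by size. The 16 genes that were higher (red) reach up to Serpina3n at 1.75, and the 4 that were lower (blue) reach down to Cstl1 at -0.79.

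None of the 40 tested inhibitor genes had every library labelled KO above every control, although 5.06% of all genes tested did. On the lower side 3 of the 40 (Cst8, Cst13 and Pebp1) had every library labelled KO below every control, which held for 2.89% of all genes tested. All 3 are among the 4 genes that fell.

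Of the 16 genes that rose, 8 were serpins. Of 21 tested serpins 8 rose and none fell (18.4% and 6.18% of all genes), with a median log2 difference of 0.53. Of the other 13 none passed, with adjusted p from 0.0922 upward. All 8 tested clade A serpins, which are mostly secreted, had positive differences, as did 10902 of the 16235 genes tested, and 4 of them rose. The 8 lie in 1 cluster of 22 Serpina genes on chromosome 12 (mm10, 103616675 to 104414329), of which the other 14 were not tested.

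Serpina5, the protein C inhibitor, inhibits proteases of coagulation and of the acrosome, and male mice without it are infertile with a damaged seminiferous epithelium. It lies at 104101113 to 104106137 on the plus strand of chromosome 12. It held 209, 305 and 282 RPM in number 2 and 439, 441 and 520 RPM in number 1 of the libraries labelled KO, against 167, 125, 117 and 104 RPM in Het and 132, 194 and 239 RPM in WT. All but the lowest library labelled KO lay above all controls. The mean was 366 ± 118 RPM in the libraries labelled KO, against 154 ± 48.6 RPM in the controls (SD, n = 6 and 7), a rise of 1.23 on the log2 scale (SE 0.196, adjusted p = 0.000135). Per kilobase of exon it stood at 169 RPM in the libraries labelled KO, against 71.2 RPM in the controls, which made it the serpin with the highest level per length among those tested in both groups. Its rise passed the test under every alternative tried, with log2 differences of 0.82 to 1.65.

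Serpina3 genes are the mouse paralogues of human SERPINA3, an acute-phase inhibitor of chymotrypsin-like proteases. Of the 10 listed, 6 were tested and 3 rose, where 18.4% of all genes did, with a median of 0.97. Serpina3n, which in mice inhibits granzyme B and elastase-like proteases, had 19.3, 53.4 and 20.8 RPM in number 2 and 42.7, 54.7 and 44.5 RPM in number 1 of the libraries labelled KO. In Het it had 8.58, 4.67, 7.57 and 6.74 RPM, and in WT 8.20, 19.98 and 28.3 RPM. WT replicates 2 and 3 thus reached into the range of the libraries labelled KO, while the other 5 controls stayed below it. Serpina3n rose by 1.75 on the log2 scale (SE 0.332, adjusted p = 0.000676), the largest difference of the set, with means of 39.2 ± 15.6 RPM in the libraries labelled KO and 12.003 ± 8.71 RPM in the controls. Serpina3c was at 27.3 to 55.2 RPM (median 43.8) in the libraries labelled KO, against 11.6 to 36.1 RPM (median 19.1) in the controls, a log2 difference of 1.01 (SE 0.221, adjusted p = 0.0023). Serpina3i, a low gene, was at 1.11 to 7.90 RPM (median 4.68) in the libraries labelled KO, against 0.126 to 2.94 RPM (median 0.551) in the controls, and rose by 1.47 (SE 0.357, adjusted p = 0.00487). Over their alternatives the adjusted p was 5.12e-05 to 0.0611 for Serpina3n, 3.96e-05 to 0.1685 for Serpina3c and 0.000988 to 0.161 for Serpina3i.

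The other Serpina3 genes that were tested did not pass. Serpina3a, the highest of them in RPM, was at 127 ± 47.01 RPM in the libraries labelled KO and 91.6 ± 41.04 RPM in the controls (log2 0.50, adjusted p = 0.129). It passed as higher against Het alone (0.76, 0.0363) and without WT replicate 3 (0.64, 0.0392), but not against WT alone (0.15, 0.781). Serpina3g passed with the KO-labelled libraries of number 1 alone (1.29, 0.0497) and without KO replicate 6 (1.19, 0.0285), but not with those of number 2 alone (0.57, 0.431). Serpina3f fell just under the level for testing, with a mean of 0.994 RPM, and Serpina9 at 1.56 RPM was the lowest inhibitor gene tested. Without a filter on low values Serpina3f had a log2 difference of 1.01 (adjusted p = 0.00233). It was at 0.689 to 2.43 RPM in the libraries labelled KO, against 0 to 0.539 RPM in the controls. Reads of such close paralogues may be split or shared by the authors' counting. In the GENCODE transcripts 15.9% of the distinct windows of 50 bases of Serpina3i, 6.90% of those of Serpina3n and 4.25% of those of Serpina3c also occur in another gene, while none of those of Serpina5 does.

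Clade B serpins stay inside cells and guard them against leaked proteases. Of these, 2 of 6 tested genes rose and none fell (18.4% and 6.18% of all genes). Serpinb1a, an inhibitor of the neutrophil proteases elastase and cathepsin G, had 12.2, 19.1 and 15.95 RPM in number 2 and 23.3, 33.2 and 30.4 RPM in number 1 of the libraries labelled KO, against 6.23 to 14.8 RPM (median 9.36) in the controls. Its log2 difference was 1.14 (SE 0.225, adjusted p = 0.000965). Serpinb6b was at 3.77 to 9.32 RPM (median 6.10) in the libraries labelled KO, against 0.884 to 7.42 RPM (median 1.53) in the controls, with a log2 difference of 1.11 (SE 0.323, adjusted p = 0.0161). Over their alternatives the adjusted p was 0.000208 to 0.0888 for Serpinb1a and 0.00173 to 0.387 for Serpinb6b. Serpinb6a, its more abundant relative, had 248 to 273 RPM (median 258) in the libraries labelled KO, against 256 to 303 RPM (median 295) in the controls (log2 -0.14, adjusted p = 0.137). All 6 libraries labelled KO lay below the control mean. Serpinb6a passed as lower once median-of-ratios scaling was used (log2 -0.29, adjusted p = 0.00457; 0.00457 to 0.667 over its alternatives), and it overlaps 3 genes of the opposite strand in the table.

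Of 7 tested serpins of other clades 2 rose and none fell (18.4% and 6.18% of all genes). Serpinf1, the secreted factor PEDF, which does not inhibit proteases and limits vessel growth, was at 24.6 to 47.8 RPM (median 39.9) in the libraries labelled KO, against 13.9 to 41.7 RPM (median 21.7) in the controls (log2 0.74, SE 0.201, adjusted p = 0.0104). Serpine2, or protease nexin 1, an inhibitor of thrombin and plasminogen activators, was at 2.44 to 5.32 RPM (median 4.43) in the libraries labelled KO, against 0.505 to 3.51 RPM (median 1.68) in the controls, and rose by 0.99 (SE 0.281, adjusted p = 0.0132). Over their alternatives the adjusted p was 0.00103 to 0.269 for Serpinf1 and 0.00678 to 0.178 for Serpine2.

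**Figure D2:**
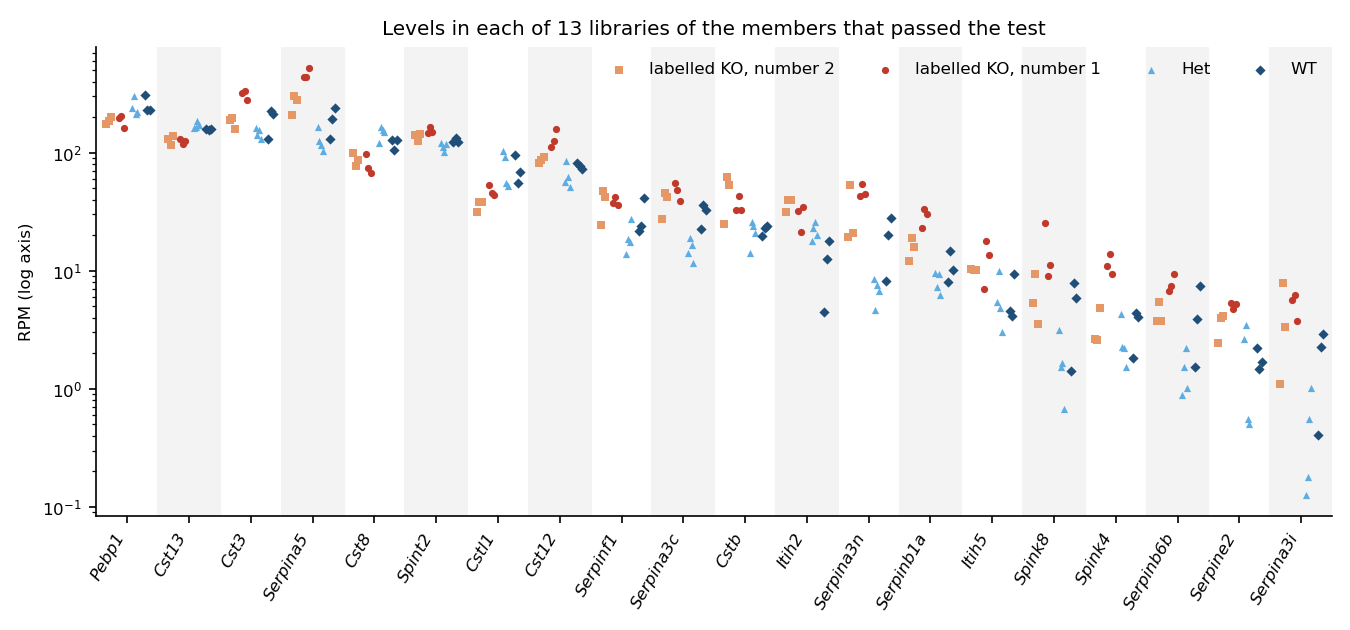
RPM on a log axis (y) in each of the 13 libraries for the 20 inhibitor genes that passed the test (x axis, ordered by control mean), with libraries labelled KO of number 2 and number 1, Het and WT side by side. Most genes that rose have their highest point in KO-labelled number 1, and Serpina3n reached 54.7 RPM with the KO label, against 8.58 RPM in Het and 28.3 RPM in WT.

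The cystatins split in 2 directions. Of 7 tested, 3 rose (Cst3, Cst12 and Cstb) and 3 fell (Cst8, Cst13 and Cstl1), where 18.4% and 6.18% of all genes did, with a median log2 difference of 0.05. Of these, 6 lie in 1 cluster on chromosome 2 (mm10, 148750358 to 148875692), in the order Cstl1, Cst12, Cst8, Cst13, Cst9 and Cst3, with Cst11, too low to test, between Cstl1 and Cst12. With all libraries, neighbours in this cluster thus moved in opposite directions. The 3 falls also passed with the KO-labelled libraries of number 2 alone, within number 2 and against WT alone, while neither rise, of Cst12 or Cst3, passed in any of these. None of the 50-base windows of these 6 genes' transcripts occurs in another gene.

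Cst8, or CRES, is the founding member of a subgroup of cystatins of the male reproductive tract and is made by spermatids and by the epididymis. It had 98.8, 77.3 and 87.2 RPM in number 2 and 96.8, 74.2 and 67.6 RPM in number 1 of the libraries labelled KO. The controls held 120, 165, 156 and 150.1 RPM in Het and 128, 105 and 129 RPM in WT, so the groups did not overlap. Cst8 fell by 0.69 on the log2 scale (SE 0.115, adjusted p = 0.000209), with means of 83.7 ± 12.7 RPM in the libraries labelled KO and 136 ± 21.5 RPM in the controls. Cst13, also of the testis, was at 116 to 138 RPM (median 128) in the libraries labelled KO, against 155 to 186 RPM (median 162) in the controls, again without overlap, and fell by 0.38 (SE 0.0764, adjusted p = 0.000997). Cstl1, a cystatin-like gene, had 31.5 to 52.97 RPM (median 41.4) in the libraries labelled KO, against 52.4 to 103 RPM (median 68.7) in the controls. The highest library labelled KO lay just above the lowest control, and the log2 difference was -0.79 (SE 0.164, adjusted p = 0.00146). All 3 passed the test, with the same sign, under every alternative tried.

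Cst12 was at 82.4, 87.6 and 91.6 RPM in number 2 and 111, 126 and 159 RPM in number 1 of the libraries labelled KO, against 50.9 to 85.3 RPM (median 72.9) in the controls, and rose by 0.63 (SE 0.149, adjusted p = 0.0043; 0.000431 to 0.237 over its alternatives). Cst3, the secreted cystatin C of most body fluids, had 190, 197 and 159 RPM in number 2 and 319, 332 and 282 RPM in number 1, against 161, 143, 155 and 130 RPM in Het and 131, 225 and 211 RPM in WT. Its level was high in number 1, while number 2 lay among the controls. The log2 difference was 0.55 (SE 0.166, adjusted p = 0.0197), and the call was lost without KO replicate 1 (0.0540), 2 (0.0556) or 3 (0.0511), with adjusted p of 0.000335 to 0.577 over all its alternatives. Cst9, or testatin, first found in the fetal testis, was taken up here after its values were seen. It had 197, 95.8 and 198 RPM in number 2 and 41.2, 21.002 and 29.3 RPM in number 1 of the libraries labelled KO, against 16.03, 88.8, 147 and 115 RPM in Het and 23.4, 95.1 and 94.9 RPM in WT. Of the 13 libraries 5 lay at 16.03 to 41.2 RPM and 8 at 88.8 to 198 RPM, with none between. The low ones were all the libraries of number 1 (KO replicates 1 to 3 and Het replicate 1) and, from number 2, WT replicate 1. Cst9 did not pass in KO against control (log2 0.05, adjusted p = 0.959).

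Outside the cluster, Cstb, the cytosolic inhibitor stefin B, which is mutated in a human progressive myoclonus epilepsy, had 25.04, 61.8 and 53.8 RPM in number 2 and 32.5, 43.1 and 32.9 RPM in number 1 of the libraries labelled KO, against 14.1 to 26.2 RPM (median 23.2) in the controls. Only the lowest library labelled KO reached into the control range. Cstb rose by 0.86 (SE 0.187, adjusted p = 0.00213) and passed the test under every alternative tried, with differences of 0.62 to 1.001. It was the only other gene of the 16 besides Serpina5 to do so.

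**Figure D3:**
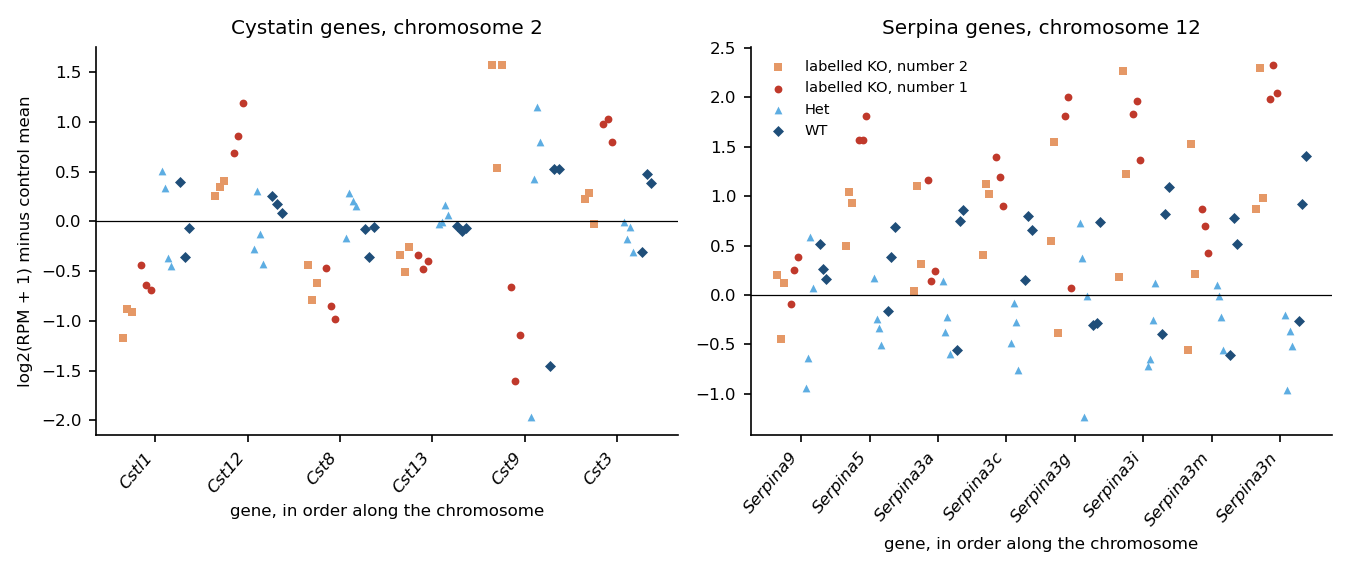
Level in each library, as log2(RPM + 1) minus the control mean (y axis), of the 6 tested cystatin genes on chromosome 2 (left) and the 8 tested Serpina genes on chromosome 12 (right), in order along the chromosome. In the cystatin cluster Cst8 and Cst13 lie below 0 in all 6 libraries labelled KO while Cst12 lies above 0 in all 6, and Cst9 falls into a low set of 5 libraries and a high set of 8.

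The stretches before the starts of 4 of these neighbouring cystatin genes and of Serpina5 are shown because these cystatins differed in direction and Serpina5 kept its rise under every alternative. Each is the 250 bases before the RefSeq start (GRCm38.p6, plus strand, 5′ to 3′), and capitals mark matches, on either strand, to any of 6 short motifs. These are the TATA box core TATAAA, the cyclic AMP response element TGACGTCA, its overlapping shorter form TGACG, the steroidogenic factor half-site AAGGTCA, the GATA factor site AGATAA and the box named for its letters CCAAT. The window of Cstl1 is chr2:148750111-148750360, that of Cst12 chr2:148789115-148789364, that of Cst8 chr2:148798589-148798838, that of Cst13 chr2:148819849-148820098 and that of Serpina5 chr12:104100863-104101112.
Cstl1: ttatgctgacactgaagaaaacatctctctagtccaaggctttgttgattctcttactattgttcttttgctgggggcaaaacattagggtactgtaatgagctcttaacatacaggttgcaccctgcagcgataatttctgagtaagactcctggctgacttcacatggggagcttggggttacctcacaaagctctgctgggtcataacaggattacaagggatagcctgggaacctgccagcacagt
Cst12: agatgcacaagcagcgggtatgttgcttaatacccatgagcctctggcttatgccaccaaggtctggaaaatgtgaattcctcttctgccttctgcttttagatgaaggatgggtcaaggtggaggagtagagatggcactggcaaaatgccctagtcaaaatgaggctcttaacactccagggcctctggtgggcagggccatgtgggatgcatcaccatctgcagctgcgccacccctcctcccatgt
Cst8: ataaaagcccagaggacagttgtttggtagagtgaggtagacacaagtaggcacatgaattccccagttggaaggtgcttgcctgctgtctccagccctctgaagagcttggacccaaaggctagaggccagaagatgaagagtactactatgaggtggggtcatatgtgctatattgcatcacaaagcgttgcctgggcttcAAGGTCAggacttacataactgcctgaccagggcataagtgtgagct
Cst13: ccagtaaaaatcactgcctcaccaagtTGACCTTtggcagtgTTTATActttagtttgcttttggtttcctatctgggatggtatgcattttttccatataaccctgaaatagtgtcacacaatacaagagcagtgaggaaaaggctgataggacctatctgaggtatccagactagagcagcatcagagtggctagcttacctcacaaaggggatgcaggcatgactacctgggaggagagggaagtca
Serpina5: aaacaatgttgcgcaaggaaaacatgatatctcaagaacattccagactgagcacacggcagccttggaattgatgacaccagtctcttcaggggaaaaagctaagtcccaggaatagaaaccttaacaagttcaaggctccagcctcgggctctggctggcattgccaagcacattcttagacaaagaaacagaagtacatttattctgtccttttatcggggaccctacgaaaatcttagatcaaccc

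AAGGTCA, a half-site bound by steroidogenic factor 1 and related receptors, was found in the windows of Cst8, 47 to 41 bases before the start, and of Cst13, 223 to 217 bases before it on the other strand. TATAAA, the core of a TATA box, was found in that of Cst13 on the other strand, 208 to 203 bases before the start. None of the 6 motifs was found in the windows of Cstl1, Cst12 and Serpina5, nor in that of Serpina3n, which is not shown. AAGGTCA occurs in 4.08% and TATAAA in 12.4% of the 32851 RefSeq windows of this length, and in 10 and 19 of the 86 windows that belong to 72 of the 96 inhibitor genes. The RefSeq starts of Cstl1, Cst12, Cst8 and Cst13 lie inside the genes as the deposited table bounds them, and the match of Cst8 falls after the table's start of that gene, at 148798785. These matches describe the sequence only. Of the cystatins shown only Cst12 rose, and the windows of Cst3, which also rose, and of Cst9 are not shown.

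Of the 12 Kazal-type genes 4 were tested, 2 rose and none fell (18.4% and 6.18% of all genes). Spink2, an inhibitor of acrosomal proteases that spermatids need, had the highest level per length of all the tested inhibitor genes, at 405 RPM per kilobase of exon in the libraries labelled KO and 452 RPM per kilobase in the controls. It was at 282 to 402 RPM (median 305) in the libraries labelled KO, against 299 to 447 RPM (median 327) in the controls, and did not pass (log2 -0.15, adjusted p = 0.306), though it passed as lower under median-of-ratios scaling (log2 -0.30, adjusted p = 0.0432; 0.0432 to 0.722 over its alternatives). Spink10 was at 6.65 ± 1.71 RPM in the libraries labelled KO and 7.03 ± 1.34 RPM in the controls (log2 -0.08, adjusted p = 0.804), and it overlaps 2 other Spink genes on the opposite strand. Spink8 held 5.32, 9.41 and 3.56 RPM in number 2 and 25.4, 8.95 and 11.3 RPM in number 1 of the libraries labelled KO, against 0.674 to 7.91 RPM (median 1.65) in the controls, and rose by 1.49 (SE 0.396, adjusted p = 0.00896). KO replicate 1 was the highest library, and the groups overlapped. The adjusted p of Spink8 was 0.00257 to 0.235 over its alternatives. Spink4 had 2.66, 2.58 and 4.82 RPM in number 2 and 10.9, 13.9 and 9.32 RPM in number 1, against 1.52 to 4.43 RPM (median 2.25) in the controls, so that only number 1 lay apart. Its log2 difference was 0.94 (SE 0.335, adjusted p = 0.0458), and the call was lost without any 1 of KO replicates 1 to 3, Het replicates 2 to 4 or WT replicate 1 (0.0747 to 0.121; 0.000874 to 0.775 over all its alternatives). The remaining 8 Kazal genes were under the level for testing, 6 of them without a read in any library.

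Spint2, a membrane-bound Kunitz inhibitor of the proteases that activate hepatocyte growth factor and of matriptase, was at 125 to 167 RPM (median 147) in the libraries labelled KO, against 102 to 133 RPM (median 122) in the controls (log2 0.29, SE 0.0854, adjusted p = 0.0168). The call was lost with median-of-ratios scaling (adjusted p = 0.269; 0.0102 to 0.269 over its alternatives). Its relative Spint1 was at 7.81 ± 3.51 RPM in the libraries labelled KO, against 5.76 ± 1.74 RPM in the controls (log2 0.31, adjusted p = 0.427). The other Kunitz genes, Spint3 and Spint4, were too low to test.

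Heavy chains of the inter-alpha-trypsin inhibitor are carried onto hyaluronan and steady the matrix around cells. Of 3 tested, 2 rose and none fell (18.4% and 6.18% of all genes). Itih2 was at 21.5 to 39.6 RPM (median 33.5) in the libraries labelled KO, against 17.8, 23.2, 25.9 and 20.05 RPM in Het and 4.45, 12.6 and 17.9 RPM in WT. Its log2 difference was 1.01 (SE 0.272, adjusted p = 0.0102). Itih5 was at 7.01 to 17.8 RPM (median 10.3) in the libraries labelled KO, against 3.03 to 9.89 RPM (median 4.82) in the controls, and rose by 0.89 (SE 0.252, adjusted p = 0.013). Over their alternatives the adjusted p was 0.00204 to 0.123 for Itih2 and 0.00606 to 0.1285 for Itih5. Itih3 had a like difference of 0.98 from lower levels, 1.14 to 3.85 RPM in the libraries labelled KO against 0 to 4.48 RPM in the controls, and did not pass (adjusted p = 0.0589). It passed as higher by limma-voom (log2 2.75, adjusted p = 0.017), with a pseudocount of 0.25 RPM (1.77, 0.0467) and against Het alone (1.40, 0.0153). It also passed without WT replicate 2, WT replicate 3 or KO replicate 3, but not against WT alone (0.41, 0.597).

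Pebp1, better known as the Raf kinase inhibitor protein than as a protease inhibitor, was at 163 to 204 RPM (median 192) in the libraries labelled KO, against 212 to 311 RPM (median 231) in the controls, without overlap. It fell by 0.40 (SE 0.0971, adjusted p = 0.00509), with an adjusted p of 0.000414 to 0.0526 over its alternatives. Of its 50-base windows 20.9% occur in the gene Gm10819. Calpastatin (Cast), the inhibitor of calpains, did not pass, at 285 ± 34.1 RPM in the libraries labelled KO and 308 ± 22.9 RPM in the controls (log2 -0.11, adjusted p = 0.32). It passed as lower under median-of-ratios scaling (log2 -0.27, adjusted p = 0.0342; 0.0342 to 0.866 over its alternatives). A2m, the broad plasma inhibitor, was at 0 to 3.99 RPM in the libraries labelled KO, against 0.180 to 7.24 RPM in the controls (log2 -0.26, adjusted p = 0.71).

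The number in the titles went with the size of many rises. With the KO-labelled libraries of number 2 alone against all controls, 4 inhibitor genes were higher and 4 lower, where 7.24% and 4.69% of all genes were. With those of number 1 alone against the same controls, 16 were higher and 4 lower, where 16.5% and 5.71% of all genes were. The comparisons share their controls. The 4 genes that were higher with number 2 alone were Serpina5 (log2 0.82), Serpina3n (1.38), Cstb (1.001) and Itih2 (1.17), and the same 4 genes were lower with each number. Within number 2, where 3 libraries labelled KO stand against 3 Het and 3 WT libraries, 3 genes were higher (Serpina5, Cstb and Itih2) and 3 lower (Cst8, Cst13 and Cstl1), where 5.36% and 3.97% of all genes were. Number 1 holds a single control library, too few for a comparison of its own.

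Tested directly, number 2 against number 1 among the libraries labelled KO, 1 of the 40 inhibitor genes differed, where 0.345% of all genes did. It was Cst3, lower in number 2 (log2 -0.77, adjusted p = 0.041). This call was lost without any 1 of the 6 libraries labelled KO. At an unadjusted p under 0.05 there were 8 of the 40, against 12.6% of all genes, and 7 of these 8 were lower in number 2. They include Spink4 (log2 -1.53, adjusted p = 0.076), Serpina5 (-0.83, 0.0702) and Serpinb1a (-0.84, 0.181), while Cst9 was higher in number 2 (2.36, 0.0817). By sign alone 29 of the 40 inhibitor genes were lower in number 2 (19 of 21 serpins and 3 of 7 cystatins). Of all genes tested 8708 of 16235 were lower in number 2, and of the 18 macrophage genes 15 were. Further, the summed Sertoli cell level was 3522 to 4654 RPM in number 2, against 5001 to 5547 RPM in number 1. What part the shifts of all genes and of these markers have in the differences was not tested.

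The calls also differed with the control genotype. Against Het alone 16 inhibitor genes were higher and 4 lower (16.9% and 5.15% of all genes), and against WT alone 4 were higher and 4 lower (6.05% and 3.34%). The 4 higher against WT were Serpina5 (log2 0.93), Serpinb1a (0.92), Cstb (0.81) and Itih2 (1.58), and the 4 lower were Cst8, Cst13, Cstl1 and Pebp1. For Serpina3n the difference was 2.26 against Het (adjusted p = 5.12e-05) and 1.06 against WT (adjusted p = 0.0611).

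Het was not shown to differ from WT for any inhibitor gene. None of the 40 passed by limma or by limma-voom, as for all genes tested (0%), and 7 had an unadjusted p under 0.05, against 5.89% of all genes. Those 7 include Serpina3c (log2 -0.94, adjusted p = 0.557), Serpina3n (-1.20, 0.673), Serpina5 (-0.53, 0.818) and, in the other direction, Itih2 (1.01, 0.653).

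**Figure D4:**
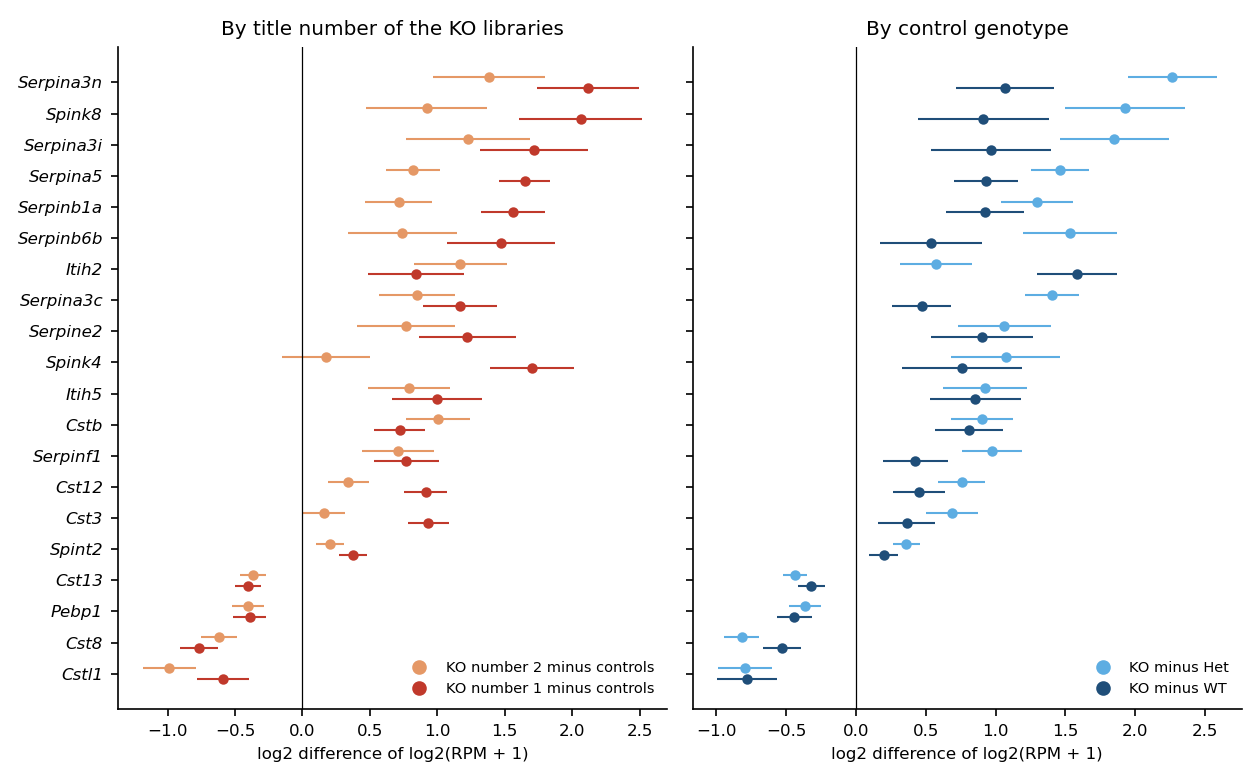
Log2 difference (x axis) with bars of 1 standard error for the 20 inhibitor genes that passed the test, in the libraries labelled KO of number 2 and number 1 against all controls (left) and in all libraries labelled KO against Het or WT (right). Cst8, Cst13, Cstl1 and Pebp1 lie below 0 in all 4 comparisons, and Spink4 stands at 0.17 with number 2 and 1.70 with number 1.

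Proteases of the classes that these inhibitor families act on moved as follows. Whether the inhibitors named here act on these proteases was not tested. Of 10 tested cysteine proteases of the cystatins' target class (cathepsins and legumain) 9 rose and none fell, where 18.4% and 6.18% of all genes did, with a median log2 difference of 0.89. With the KO-labelled libraries of number 2 alone 6 were higher (7.24% of all genes), against WT alone 6 (6.05%), and 4 within number 2 (5.36%). Among them were Ctsz (log2 1.16, adjusted p = 8.13e-05), Ctsb (0.97, 8.5e-05), Ctsc (1.35, 0.000161) and Ctsh (0.87, 0.000346). Of 21 tested serine proteases of the serpins' and Kazal and Kunitz proteins' target classes 4 rose and 1 fell, near the 18.4% and 6.18% of all genes. Their median was 0.14, against 0.16 over all genes tested. The 4 were Htra1 (log2 1.70), Masp1 (2.37), the tissue plasminogen activator gene Plat (1.28) and C1ra (1.31), and the gene that fell was Proc (-0.60). Of 14 tested calpain genes 2 rose (Capn6 and Capn9) and none fell, where 18.4% and 6.18% of all genes did, and the median was 0.26.

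Of 35 tested inhibitor genes outside the set, 16 rose and 1 fell, where 18.4% and 6.18% of all genes did, with a median of 0.48. The 1 that fell was Wfdc15a itself, which this list includes (log2 -0.66, limma adjusted p = 0.0348). The 4 with the lowest adjusted p were the metalloprotease inhibitor gene Timp1 (26.7 ± 9.79 RPM in the libraries labelled KO, 2.89 ± 3.86 RPM in the controls, log2 3.24, adjusted p = 2.29e-05), Aplp2 (0.51), Sparcl1 (1.06) and Wfdc1 (1.06). Serping1 rose by 1.19 (adjusted p = 0.00163).

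Some of these inhibitors are also made outside the testis. The first 3 epididymal markers listed, Lcn5, Crisp1 and Adam7, were at or under 0.884 RPM in every library. The summed level of that list was 1216 to 3064 RPM in the libraries labelled KO and 418 to 1081 RPM in the controls. Its 2 most abundant genes, both also made by other cell types, were Lcn2, at 1166 to 3007 RPM in the libraries labelled KO and 335 to 1012 RPM in the controls, and Aqp9, at 41.2 to 66.3 RPM and 46.8 to 76.5 RPM. Of the 5 genes of the list that were tested, Lcn2 rose, and Aqp9, Rnase10, Crisp4 and Ces5a did not pass (log2 -0.15, -0.02, -0.30 and -0.40; adjusted p = 0.389, 0.954, 0.476 and 0.36). Seminal vesicle and prostate genes summed to 0.373 to 3.78 RPM in the libraries labelled KO, against 0.842 to 3.22 RPM in the controls, and albumin (Alb) was at most 0.420 RPM.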

How the data were processed

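The design text gives 6 KO mice and 7 control mice. Per the labels' protocols, Smart-seq2 libraries were made from about 2 ng of RNA and amplified over 11 PCR cycles. Per the submitters' processing notes, FastQC 0.11.8, Trim Galore 0.6.6 and the mm10 build were used. No source used here names the aligner or the counter, or says whether counting used strand. The authors deposited log2 RPM per gene, in which genes without reads hold the value of 0.9 read. Turned back, at least 99.96% of values per library were whole reads (within 0.01 read).

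The main test was limma 3.58.1 in R 4.3.3, with a mean-variance trend, on log2(RPM + 1) over genes that averaged 1 RPM or more, KO against pooled control, adjusted by Benjamini and Hochberg. Fold changes on this scale understate changes of low genes. KO number 2 against number 1 came from a fit with 4 groups, and Het against WT from one with 3. The test was tried on simulated data. Alternatives were a pseudocount of 0.25, no filter or an average of 5 RPM or more, median-of-ratios scaling, quantile normalization, limma-voom on recovered reads, replicate number as block, subsets by title number or control genotype, and leaving out each library. Genes were named by a rule: every inhibitor gene that passed in any of these 3 comparisons, the 2 with the highest mean RPM in each family, and up to 4 of each companion list. Serpina3f and Serpina9 mark the edge of the filter, and Serpina3a, Serpina3g, Itih3, A2m and Cst9 were added after their values were seen. Genes and lists were chosen with earlier results of these data known. Coordinates are those of the deposited table. GENCODE release 21 held 94 of the 96 genes and gave exon lengths, and sequences are from RefSeq.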

Additional observations from a re-analysis of the deposited data

Results flagged for a closer look

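Of 52 groups of libraries examined over 25 inhibitor genes and Wfdc15a, 2 held a library far from the others of its group, where chance gives about 1 in 20. Spink2 stood at 402 RPM in KO replicate 6, with the other libraries labelled KO at 282 to 322 RPM. Spink8 stood at 25.4 RPM in KO replicate 1, with the others at 3.56 to 11.3 RPM.

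The KO-labelled libraries of number 2 differed from those of number 1 for 3 of the genes reported. Cst3 was lower in number 2 (log2 -0.77, adjusted p = 0.041), and so was Serping1 (log2 -1.28, adjusted p = 0.0173). Wfdc15a was higher in number 2 (log2 1.10, adjusted p = 0.0412).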

How the results depend on the processing

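Of the 20 inhibitor genes that passed in KO against control, 18 kept their call whichever library was left out, the exceptions being Cst3 and Spink4. In all, 5 kept it under every alternative as well: Cst8, Cst13, Cstl1, Cstb and Serpina5. None changed sign. The number that rose, 16, was 10 with quantile normalization, 3 with title number 2 only, 4 with the KO-labelled libraries of number 2 alone and 4 with WT alone as control. It was 14 to 18 when single libraries were left out. The number that fell, 4, was 7 with median-of-ratios scaling, where Spink2, Serpinb6a and Cast were added. Between KO number 2 and number 1 the 1 call became 0 with a pseudocount of 0.25 RPM or no filter, 2 with quantile normalization or when Serping1 was counted in (an alternative added after seeing the data), and 0 to 3 when single libraries were left out. Het against WT gave 0 in every alternative run. For Wfdc15a the difference of -0.66 was -0.15 with title number 2 only (exact permutation p = 0.5), and -0.86 to -0.46 when single libraries were left out. The cause of these changes was not tested. With replicate block, 14 genes rose and 4 fell, and Itih2 (adjusted p = 0.0546; 0.00204 to 0.123 over its alternatives) and Serpinf1 (0.0659; 0.00103 to 0.269) were lost. The block rests on a number that the samples share and no more: over 10 pairs with the same number the correlation of deviations was -0.08 to 0.13. Genes under 1 RPM rest on few reads, which limits what can be detected there, though Serpina3f passed without the filter.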
